A study of Homo sapiens with 12 samples.

Results

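NFIL3 and 9 genes of the circadian clock were followed across 12 expression arrays of human embryonic kidney (HEK) cells that carried an inducible TRPM7 channel. The 10 genes were NFIL3, DBP, TEF, HLF, PER1, PER2, CRY1, CRY2, BHLHE40 and NR1D2. They were chosen by a rule that used measured values, and earlier results from these same arrays were known. Their values, and the calls at a threshold given for them below, are therefore a description and not a test. All 22 probe sets (sets of short probes for 1 transcript) that the platform annotation assigns to the 10 genes were taken, of 54675 on the array. Of these, 14 probe sets of 9 genes passed a filter on dim signals, and CRY2 had none that did. Over the whole array, the probe sets annotated to 1 gene only covered 19775 genes, which leaves out PER1.

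TRPM7 is an ion channel for divalent metals with a kinase domain fused to its end. Total RNA came from stable HEK cell lines with a tetracycline-inducible TRPM7, measured on 1 array per sample. One line carried the WT channel (the WT line), and the other the mutant channel TRPM7DKD, whose kinase domain is deleted (the mutant line). The series design presents the mutant as a nonfunctional control, because the inducer alone may change transcription. The 4 groups were WT untreated, WT tetracycline, Mutant untreated and Mutant tetracycline, with 3 arrays in each. The treated groups received 1 ug of tetracycline, with no volume given, for 72 hours, and all 4 groups grew with 5 ug/mL blasticidin. The design names 1 cell line per genotype. Differences between the lines, untreated or in the change with tetracycline, therefore cannot be told apart from differences between their founding cells. No label states that replicate arrays were separate cultures. The p-values below therefore measure only the spread between these samples, which may be technical.

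The values are MAS5 signals (probe set intensities) that the authors had scaled to a common trimmed mean on every array. They are printed as log2, after signals under 1 were set to 1. Changes are differences of group means on the log2 scale with their SE (standard error from the limma fit), n = 3 arrays per group. Levels of different probe sets are not comparable. Precision is limited by the number of arrays. The brightest TRPM7 probe set read 8.47 ± 0.31 (SD, n = 3) in WT untreated and 7.62 ± 0.67 in WT tetracycline (limma adjusted p = 0.0643), and 0 of its 3 tested probe sets rose in either line. Those signals do not check the tetracycline labels, on which each direction below rests. The 3′ over 5′ signal of the beta-actin control, a sign of RNA quality, had a log2 ratio that ranged from 0.63 to 1.36 in WT cells and from 0.23 to 0.29 in the mutant line. It was highest on WT tetracycline replicate 1 (1.36), followed by WT untreated replicate 1 (1.29). The same ratio of the GAPDH control overlapped between the lines, at 0.02 to 0.17 in WT cells and 0.04 to 0.14 in mutant cells. The median SD per probe set was 0.299 and 0.326 in the untreated and treated WT line, and 0.174 and 0.19 in the same groups of the mutant line. The fit uses 1 spread per probe set for all groups, so its SEs lean small for the WT line and large for the mutant line. Of 8 markers of embryonic kidney epithelium, 7 were bright enough to be tested. One of them, WT1, fell in the WT line by 0.58 (limma adjusted p = 0.0377), while the summed signal of the list was 19372 to 19818 in WT untreated and 19431 to 19882 in WT tetracycline. Of the 5 fibroblast markers 4 were too dim, while the other, COL1A1, rose in the WT line by 0.88 ± 0.20 (limma adjusted p = 0.00748). Of the 2 other tested COL1A1 probe sets, 202310_s_at gave 1.00 ± 0.30 and 217430_x_at gave -0.23 ± 0.29. The sums are of unlogged signal and mostly follow the brightest gene, EPCAM in the kidney list and COL1A1 in the fibroblast list. The summed signal of the fibroblast list was 630 to 982 in WT untreated and 1292 to 1369 in WT tetracycline. It was 753 to 833 and 765 to 1063 in the untreated and treated mutant line, and the part of either list in the changes below was not tested.

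The circadian clock is a loop of transcription factors. CLOCK and BMAL1 bind E-boxes and switch on the PER and CRY genes, whose proteins return to the nucleus and repress CLOCK and BMAL1. In a loop beside it, REV-ERB proteins (one of them encoded by NR1D2) and ROR proteins compete for ROR elements (ROREs), among others at BMAL1 and NFIL3. A further arm works through D-boxes, where DBP, TEF and HLF activate and NFIL3 represses the same sites. Many cultured cells hold a clock, but cells that have not been synchronised run out of phase with each other, and the PER genes also respond directly to signals such as cAMP, glucocorticoids and stress. NFIL3 and BHLHE40 are known to respond to signals outside the clock too.

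The elements of these loops lie in promoters, so 6 of those are printed here, for the 5 genes whose WT groups did not overlap and for NR1D2, which holds a D-box. They are RefSeq windows on GRCh38.p14 from 250 bases before to 50 bases after an annotated transcription start, read 5′ to 3′ on the strand of the gene. RefSeq gave 15 such windows for the 10 genes, and all 10 matched by symbol. Capitals mark a match to a D-box (TTATGTAA or TTACGTAA), an E-box (CACGTG), an E′-box (CACGTT), a cAMP response element or CRE (TGACGTCA), a RORE core (AGGTCA) or a C/EBP-ATF element (TGATGNAA), on either strand.
NFIL3: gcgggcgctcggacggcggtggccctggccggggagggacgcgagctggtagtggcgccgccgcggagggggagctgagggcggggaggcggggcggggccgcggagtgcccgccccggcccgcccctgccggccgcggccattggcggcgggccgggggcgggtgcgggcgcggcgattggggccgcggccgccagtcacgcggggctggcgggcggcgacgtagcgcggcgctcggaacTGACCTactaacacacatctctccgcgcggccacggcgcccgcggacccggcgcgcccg
PER1: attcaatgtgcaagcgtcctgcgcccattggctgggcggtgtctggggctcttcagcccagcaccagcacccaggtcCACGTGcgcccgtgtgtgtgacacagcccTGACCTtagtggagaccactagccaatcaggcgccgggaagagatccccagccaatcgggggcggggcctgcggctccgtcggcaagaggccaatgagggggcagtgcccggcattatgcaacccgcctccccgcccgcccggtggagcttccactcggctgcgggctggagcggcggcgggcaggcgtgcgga
PER2: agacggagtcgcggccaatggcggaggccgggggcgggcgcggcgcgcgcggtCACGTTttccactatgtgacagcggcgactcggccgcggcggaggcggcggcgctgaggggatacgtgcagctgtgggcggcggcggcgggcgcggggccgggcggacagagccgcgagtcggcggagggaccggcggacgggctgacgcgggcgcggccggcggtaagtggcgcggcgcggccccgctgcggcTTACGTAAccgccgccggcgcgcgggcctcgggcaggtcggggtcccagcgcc
CRY1: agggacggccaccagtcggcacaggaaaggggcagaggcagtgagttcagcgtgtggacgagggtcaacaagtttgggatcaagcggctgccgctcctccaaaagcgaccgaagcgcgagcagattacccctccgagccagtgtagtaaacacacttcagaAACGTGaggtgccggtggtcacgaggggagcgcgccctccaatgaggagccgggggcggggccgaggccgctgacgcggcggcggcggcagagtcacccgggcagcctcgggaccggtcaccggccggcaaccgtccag
BHLHE40: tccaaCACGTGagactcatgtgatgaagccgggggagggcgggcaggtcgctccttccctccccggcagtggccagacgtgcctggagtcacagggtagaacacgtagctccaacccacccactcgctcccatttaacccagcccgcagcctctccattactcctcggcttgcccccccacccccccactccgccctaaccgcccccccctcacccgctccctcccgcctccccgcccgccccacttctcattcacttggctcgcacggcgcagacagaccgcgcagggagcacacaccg
NR1D2: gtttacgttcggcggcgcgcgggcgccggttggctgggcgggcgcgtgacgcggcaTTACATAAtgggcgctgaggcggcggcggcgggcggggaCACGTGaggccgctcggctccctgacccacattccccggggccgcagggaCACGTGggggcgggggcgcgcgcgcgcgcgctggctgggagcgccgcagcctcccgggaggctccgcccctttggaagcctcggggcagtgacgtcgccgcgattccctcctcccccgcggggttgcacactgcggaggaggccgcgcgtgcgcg
The windows lie at chr9:91423783-91424082 (minus strand) for NFIL3, chr17:8152355-8152654 (minus strand) for PER1, and chr2:238288561-238288860 (minus strand) for PER2. The others lie at chr12:107093500-107093799 (minus strand) for CRY1, chr3:4979187-4979486 (plus strand) for BHLHE40 and chr3:23945871-23946170 (plus strand) for NR1D2.

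The D-box, the element that NFIL3 and the DBP, TEF and HLF proteins share, was found for 2 of the 10 genes, in 2 of the 15 windows. PER2 held one at position -3 from the start and NR1D2 one at position -194, while 1.01% of 35116 RefSeq promoter windows of the same length held the motif. E-boxes were found for 4 genes (BHLHE40 at -245, PER1 at -173, NR1D2 at -155 and -105, and TEF in both of its windows), or 5 of the 15 windows, against 7.26% of all windows. The E′-box, a variant of the E-box known from PER2, was found for 3 genes (PER2 at -197, CRY1 at -89 and CRY2 at -188), or 3 of the 15 windows, against 5.34%. The RORE core stood in windows of NFIL3 at -9, of PER1 at -144 and of CRY2 at -62 and -64 from its 2 starts, or 4 of the 15, against 13.8%. HLF held a CRE at -7 in 1 of the 15, against 1.85% of windows, and 0 of the 15 windows held the C/EBP-ATF element, against 3.62%. DBP and the other windows of NFIL3, HLF and NR1D2 held 0 matches. None of the matches in these windows overlapped another. A match describes the letters only, and no binding was measured.

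**Figure D1:**
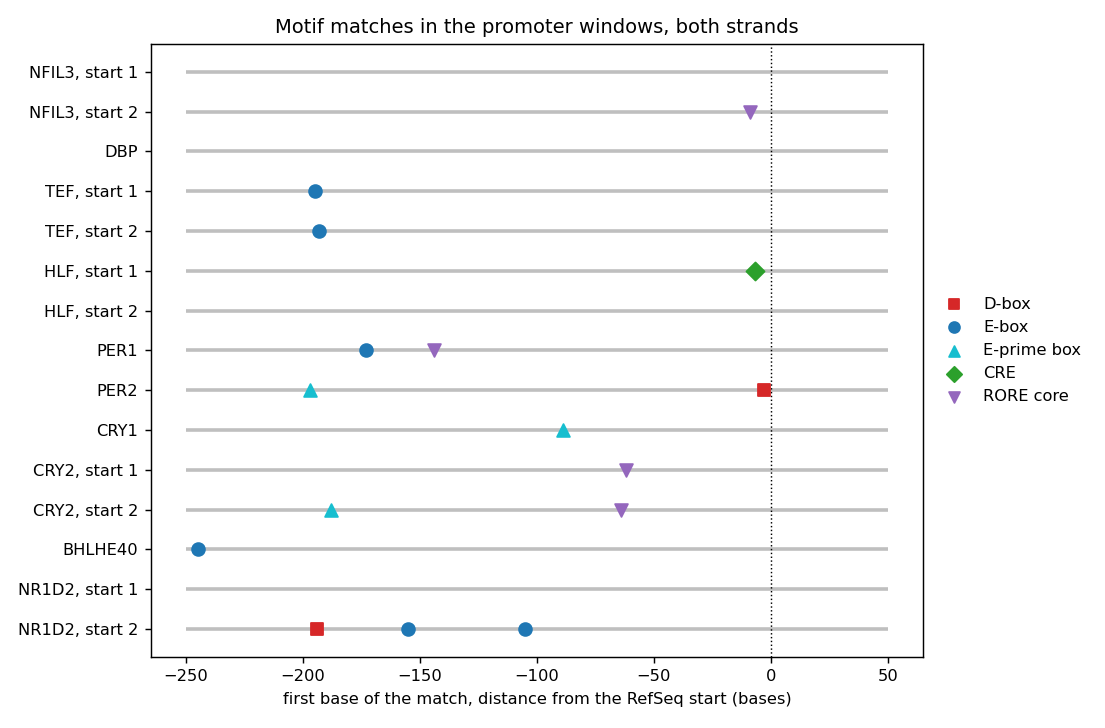
Motif matches in the 15 RefSeq promoter windows of the 10 genes. The horizontal axis is the distance in bases from the annotated start, each grey line is 1 window and each symbol marks where a match begins. The D-box appears for PER2 (-3) and NR1D2 (-194), and 4 genes hold an E-box.

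NFIL3, the D-box repressor, was higher with tetracycline in the WT line and level in the mutant line. Its only probe set (203574_at) read 9.71, 10.12 and 9.83 in WT untreated and 11.16, 11.12 and 11.42 in WT tetracycline. It read 10.02, 10.22 and 10.01 in Mutant untreated and 10.06, 10.21 and 10.16 in Mutant tetracycline. All 3 treated WT arrays lay above the other 9 arrays, and the remaining groups overlapped. In RNA from whole cultures, a higher level per cell cannot be told apart from more cells that express the gene. The WT means were 9.89 ± 0.21 (SD, n = 3) and 11.23 ± 0.16, a change of 1.35 ± 0.15 (SE) or 2.54-fold. The mutant change was 0.06 ± 0.15, and the WT change exceeded it by 1.29 ± 0.21. Over 21 alternative analyses the WT change lay between 1.22 and 1.46. In order of level, WT tetracycline stood apart, and Mutant tetracycline, Mutant untreated and WT untreated did not differ beyond their spread.

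**Figure D2:**
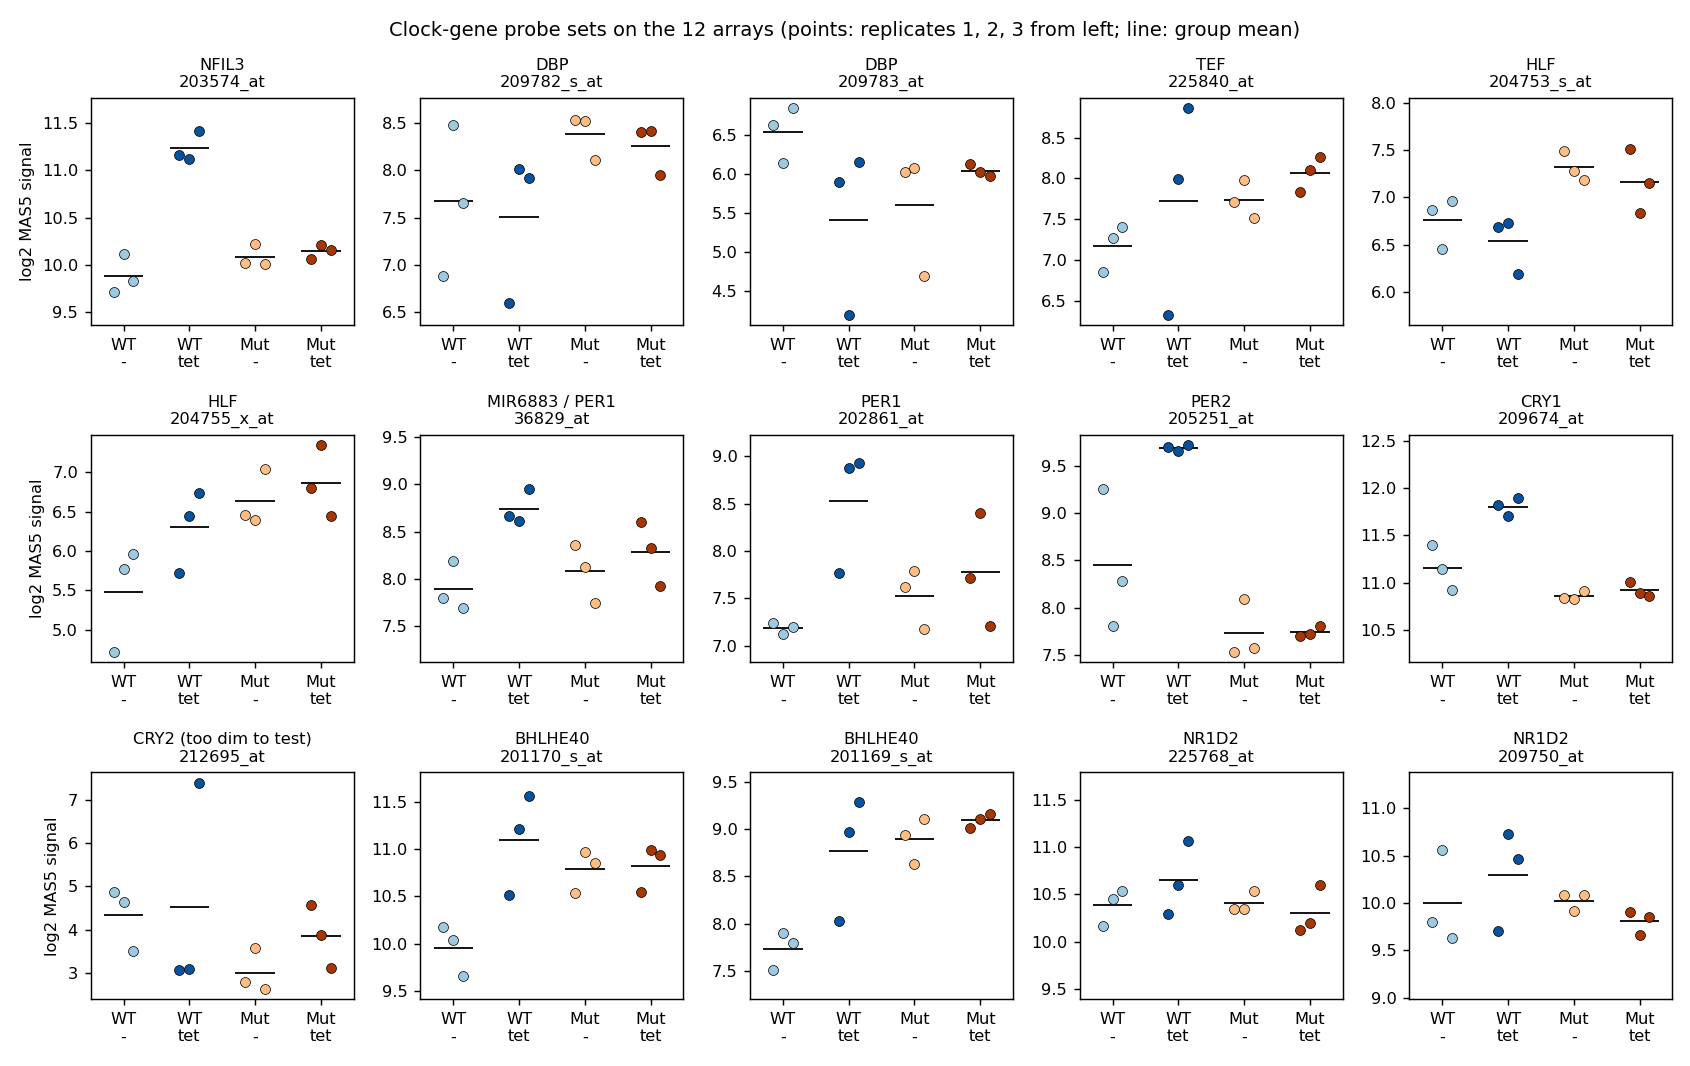
log2 MAS5 signal of the 14 tested probe sets and of CRY2 on each array. Points are the 3 arrays of a group, black lines are group means, and - and tet stand for untreated and tetracycline. The treated WT arrays of NFIL3, at 11.12 to 11.42, lie above the other 9, whereas those of BHLHE40 and TEF spread widely.

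The DBP, TEF and HLF genes encode the activators that compete with NFIL3 at D-boxes, and none of them showed a treated WT group apart from the untreated one on a tested probe set. DBP, which is a strongly rhythmic output gene in most tissues, read 6.88, 8.48 and 7.66 in WT untreated and 6.60, 8.01 and 7.92 in WT tetracycline on 209782_s_at. The mutant line read 8.53, 8.52 and 8.11 untreated and 8.40, 8.42 and 7.95 treated. The groups of each line overlapped, and replicate 1 was the lowest array of both WT groups. The change was -0.17 ± 0.40 in WT cells and -0.13 ± 0.40 in mutant cells. A dimmer DBP probe set, 209783_at, gave -1.12 ± 0.59 and 0.44 ± 0.59. That probe set passed the filter through WT untreated alone, at a mean of 6.53, so a lower value in the other groups was built into its choice. Its WT groups overlapped as well, at 6.63, 6.14 and 6.84 untreated against 5.90, 4.20 and 6.15 treated.

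TEF, a broadly expressed activator, had the widest treated WT group of the 3 genes. On 225840_at it read 6.85, 7.27 and 7.41 in WT untreated and 6.33, 7.99 and 8.86 in WT tetracycline. Replicate 1 of the treated group lay below all untreated WT arrays and the other two lay above them, so the change of 0.55 ± 0.45 rests on which arrays are kept. It was 1.25 without WT tetracycline replicate 1 and -0.02 without WT tetracycline replicate 3. TEF in the mutant line read 7.71, 7.98 and 7.51 untreated and 7.84, 8.10 and 8.26 treated, which overlapped, with a change of 0.34 ± 0.45. The other 3 TEF probe sets were too dim to be tested, with group means from 1.43 to 5.78. One of them, 210167_s_at, read 4.68, 3.89 and 2.49 in WT untreated and 6.09, 5.28 and 5.96 in WT tetracycline. These dim WT groups did not overlap, while the mutant groups of that probe set did. HLF, which is best known from liver and brain, read 6.87, 6.45 and 6.96 in WT untreated and 6.69, 6.73 and 6.19 in WT tetracycline on 204753_s_at. Those groups overlapped, as did the mutant groups at 7.49, 7.28 and 7.18 untreated and 7.51, 6.83 and 7.15 treated. The HLF change was -0.23 ± 0.30 in WT cells and -0.15 ± 0.30 in mutant cells, and a dimmer probe set, 204755_x_at, gave 0.82 ± 0.46 and 0.23 ± 0.46. The latter passed the filter through the mutant groups alone, at means of 6.63 and 6.86 against 5.48 and 6.30 in the WT line. A further HLF probe set was too dim to be tested, with group means from 5.65 to 6.17.

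PER1 and PER2 encode the period proteins, which repress CLOCK and BMAL1 together with the cryptochromes. The 4 PER1 probe sets are annotated to both PER1 and MIR6883, a microRNA gene that shares its locus. One of them, 202861_at, carries a RefSeq transcript that belongs to PER1. It read 7.24, 7.12 and 7.20 in WT untreated and 7.77, 8.88 and 8.93 in WT tetracycline. The groups did not overlap, although replicate 1 of the treated group was the lowest by more than 1 log2 unit. Its mutant values were 7.62, 7.79 and 7.18 untreated and 7.72, 8.40 and 7.21 treated, which overlapped. The change was 1.34 ± 0.34 in WT cells and 0.24 ± 0.34 in mutant cells, a difference of 1.10 ± 0.48.

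The brightest of the 4, 36829_at, showed the same order with a smaller change. It read 7.80, 8.19 and 7.69 in WT untreated and 8.67, 8.61 and 8.95 in WT tetracycline, and these groups did not overlap. Its mutant groups read 8.36, 8.13 and 7.75 untreated and 8.60, 8.33 and 7.93 treated. The treated mutant arrays reached into the range between the WT groups, and the mutant groups overlapped each other. The change was 0.85 ± 0.24 in WT cells and 0.21 ± 0.24 in mutant cells, a difference of 0.64 ± 0.34. The 2 remaining probe sets were too dim to be tested, with group means from 2.01 to 5.80.

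PER2 was tight in the treated WT group and scattered in the untreated one. On 205251_at it read 9.26, 7.80 and 8.28 in WT untreated and 9.70, 9.66 and 9.72 in WT tetracycline. The groups did not overlap, but untreated replicate 1 lay closer to the treated arrays than to the other untreated ones. In the mutant line it read 7.53, 8.09 and 7.57 untreated and 7.70, 7.72 and 7.80 treated. The change was 1.25 ± 0.29 or 2.38-fold in WT cells and 0.01 ± 0.29 in mutant cells, a difference of 1.24 ± 0.41. Without WT untreated replicate 1 the WT change was 1.66. In order of level WT tetracycline came highest at 9.69 ± 0.03 (SD, n = 3), then WT untreated at 8.44 ± 0.74, whose arrays overlapped those of Mutant untreated, and the mutant groups lay at 7.73 and 7.74 within each other's spread. The other PER2 probe set was too dim to be tested, with group means from 3.36 to 4.11.

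CRY1 and CRY2 encode the cryptochromes, the main repressors of CLOCK and BMAL1. CRY1 (209674_at) read 11.40, 11.15 and 10.92 in WT untreated and 11.82, 11.70 and 11.89 in WT tetracycline. It read 10.84, 10.83 and 10.91 in Mutant untreated and 11.01, 10.89 and 10.86 in Mutant tetracycline. The WT groups did not overlap and the mutant groups did. The change was 0.64 ± 0.14 or 1.56-fold in WT cells and 0.06 ± 0.14 in mutant cells, a difference of 0.58 ± 0.19. CRY2 had a single probe set, which was too dim to be tested, with group means up to 4.52. It read 3.06, 3.10 and 7.40 in WT tetracycline, so 1 array lay far above the other two, and no direction is given for it.

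BHLHE40 (DEC1) encodes a repressor that binds E-boxes in competition with CLOCK and BMAL1. Its brighter probe set, 201170_s_at, read 10.17, 10.04 and 9.66 in WT untreated and 10.51, 11.21 and 11.56 in WT tetracycline. It read 10.53, 10.97 and 10.85 in Mutant untreated and 10.54, 10.99 and 10.94 in Mutant tetracycline. The untreated WT arrays were the lowest of all 12, and the treated WT arrays covered and exceeded the range of the mutant arrays. The change was 1.14 ± 0.23 in WT cells and 0.04 ± 0.23 in mutant cells, a difference of 1.10 ± 0.33. The second probe set, 201169_s_at, gave 1.03 ± 0.27 and 0.20 ± 0.27. It read 7.51, 7.90 and 7.80 in WT untreated and 8.03, 8.97 and 9.29 in WT tetracycline, where replicate 1 was again the lowest of its group. Without that array the WT changes of the 2 probe sets were 1.43 and 1.40.

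NR1D2 encodes REV-ERB beta, a repressor that binds ROREs. Its 2 probe sets gave the smallest positive changes in the WT line among the tested members. On 225768_at it read 10.17, 10.45 and 10.53 in WT untreated and 10.29, 10.60 and 11.06 in WT tetracycline. It read 10.34, 10.35 and 10.53 in Mutant untreated and 10.12, 10.20 and 10.60 in Mutant tetracycline. The groups overlapped within each line, and the changes were 0.26 ± 0.19 and -0.10 ± 0.19. On 209750_at the changes were 0.30 ± 0.26 and -0.22 ± 0.26, and there the treated mutant arrays (9.90, 9.66 and 9.85) lay just below the untreated ones (10.08, 9.91 and 10.08).

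Counted together, the members stood as follows, with the share over all tested probe sets as background. In the WT line 7 of the 14 tested probe sets passed the limma threshold (adjusted p under 0.05 over all 29553 probe sets tested), all 7 of them higher with tetracycline. These were NFIL3, both of BHLHE40, 2 of PER1, and those of PER2 and CRY1. The background was 16.9% of probe sets called in either direction and 7.83% called higher. The same 7 had groups that did not overlap, against 26.7% of all tested probe sets. In the mutant line 0 of 14 passed, at an unadjusted p under 0.05 too, against a background of 0% (620 of 29553 at an unadjusted p under 0.05). That fit shares its spread with the WT line, so its SEs lean large for the mutant line. With only the mutant arrays in the fit, 2209 of 29553 had an unadjusted limma p under 0.05 and 0 passed. Of the 14 member probe sets 0 had an unadjusted p under 0.05 in that fit too. There 1 of 14 did not overlap (NR1D2 209750_at, lower), against 13.2%. For the WT change minus the mutant change 1 of 14 passed, NFIL3, against 0.139%. The median change of the 14 was 0.73 in the WT line, where the median of all tested probe sets was 0.02, and 0.06 in the mutant line, where it was 0.00. Nothing is read from these counts, since the genes were selected on these values.

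The WT calls depend on how the spread is estimated. With only the 6 WT arrays in the fit, 2 of the 14 passed (NFIL3 and BHLHE40 201170_s_at), and without the replicate 3 arrays of all groups 1 did (NFIL3). The difference call of NFIL3 was lost on leaving out 9 of the 12 arrays in turn (all but WT untreated replicates 1 and 2 and WT tetracycline replicate 1). Without WT tetracycline replicate 1 there were 4 such calls (NFIL3, both BHLHE40 probe sets and PER1 202861_at).

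**Figure D3:**
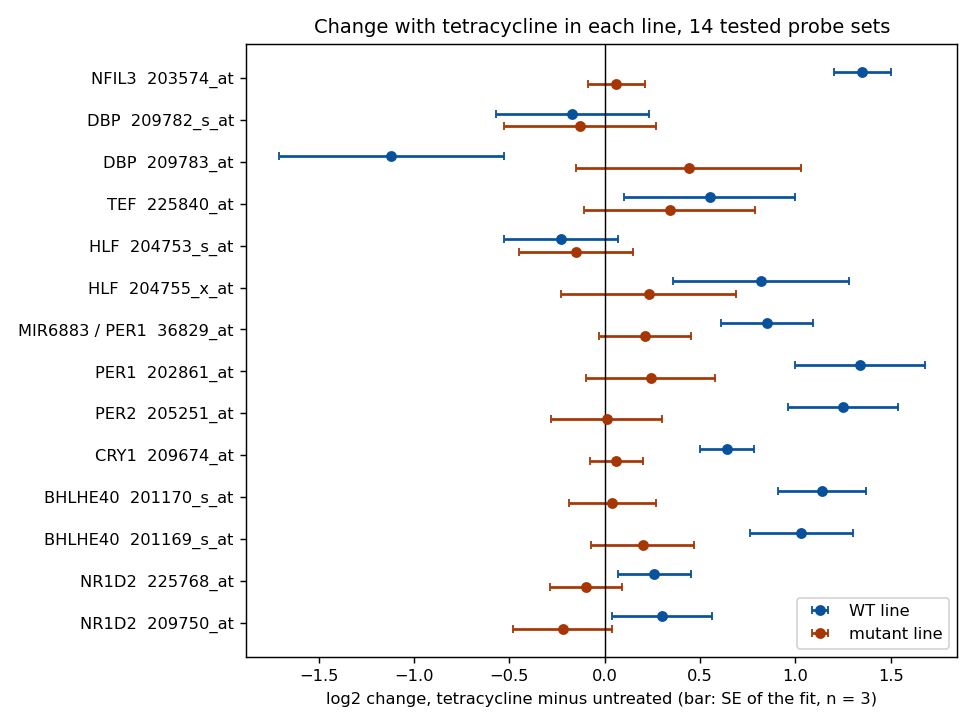
log2 change with tetracycline of the 14 tested probe sets in the WT line (blue) and the mutant line (brown). Points are differences of group means and bars the SE of the limma fit, n = 3 arrays per group. NFIL3 reaches 1.35 in the WT line against 0.06 in the mutant line, and DBP 209783_at (-1.12) is the most negative.

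Between the untreated lines 2 of the 14 member probe sets passed the limma threshold, against 12.9% of all probe sets called and 8.70% called lower in the WT line, so the members' share is near the background. Both belong to BHLHE40, and 0 passed without Mutant untreated replicate 1 or without Mutant untreated replicate 3. BHLHE40 was lower in WT untreated than in Mutant untreated by 0.83 ± 0.23 on 201170_s_at and by 1.16 ± 0.27 on 201169_s_at (the WT line minus the mutant line was -0.83 and -1.16). On both probe sets the treated WT mean (11.10 and 8.76) came near the mutant means (10.79 and 8.89 untreated). PER2 leaned the other way, at 0.71 ± 0.29, and CRY1 was higher in the WT line by 0.30 ± 0.14. NFIL3 read 0.19 lower in the WT line (-0.19 ± 0.15), with overlapping groups. TEF (-0.56 ± 0.45) and HLF 204753_s_at (-0.55 ± 0.30) were lower in WT untreated without overlap. HLF 204755_x_at gave -1.15 ± 0.46, also without overlap, but its lower WT value was built into its choice by the filter. The DBP probe sets went opposite ways, at -0.71 ± 0.40 on 209782_s_at and 0.93 ± 0.59 on 209783_at, whose higher WT untreated value was likewise built into its choice. Of the 14 probe sets 2 were higher and 5 lower without overlap, against 35.5% of all tested probe sets in either direction, and these counts include the 2 probe sets tied to the filter. Over all probe sets 1237 were higher and 2570 lower in the WT line, and 1357 and 1782 after quantile normalization. The actin ratio given above separates the same lines and the GAPDH ratio does not. The endothelial marker KDR read lower in WT untreated, by 1.35 (-1.35 ± 0.38, limma adjusted p = 0.0295), but it passed the filter through the mutant groups alone (means 6.83 and 6.84, against 5.48 and 5.72 in the WT line). The other tested marker of that 4-gene list, PECAM1, did not pass, and the summed signal of the list was 110 to 322 in WT untreated and 257 to 282 in Mutant untreated. The kidney marker EPCAM was higher in WT untreated by 0.35 ± 0.09 (limma adjusted p = 0.018). The summed signal of the kidney list, which mostly follows EPCAM, was 19372 to 19818 there and 15544 to 16707 in Mutant untreated. The part of these in the differences was not tested.

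Genes around the members were taken from 6 lists of the clock pathway, 72 genes in all, of which 63 were tested with 1 probe set per gene (the brightest). All 6 lists were drawn up with earlier results of these arrays known, so their counts are not independent evidence. Of the rest, 2 (RORB and CEBPE) were too dim, 1 (NR1D1) shares its probe sets with THRA, and 6 were not analysed here. In the WT line 14 of the 63 rose and 2 fell (limma, adjusted over all 29553 probe sets), that is 25.4%, against 18.0% of all 13066 genes with a tested probe set. Their median change was 0.18, against 0.03 for all genes. By list, 11.1% of the core clock genes passed, 23.1% of the kinases and ubiquitin ligases and 25% of the corepressors and coactivators. The shares were 30.8% for the signal inputs, 11.1% for the outputs and 57.1% for the C/EBP and ATF4 family, against the same 18.0%. In the mutant line 0 of 63 passed (2 at an unadjusted p under 0.05), against 0% of all genes. For the WT change minus the mutant change 1 of 63 passed (14 at an unadjusted p under 0.05), against 0.145%.

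Among the core clock genes 1 of 9 rose in the WT line and none fell. It was ARNTL, which encodes BMAL1, at 7.91 ± 0.29 (SD, n = 3) untreated and 8.57 ± 0.30 treated, a change of 0.66 ± 0.21 (limma adjusted p = 0.0458). That call was lost in 15 of 20 alternative analyses, and the other tested ARNTL probe set gave 0.37 ± 0.22 and did not pass. The ARNTL change in the mutant line was 0.32 ± 0.21, and the difference between the lines did not pass (limma adjusted p = 0.648). CLOCK, the partner of BMAL1, gave -0.18 ± 0.15, and PER3, the third period gene, 0.49 ± 0.32. BHLHE41 (DEC2), the close relative of BHLHE40, gave 1.01 ± 0.33 and did not pass (limma adjusted p = 0.0513). It read 9.10, 10.13 and 10.83 in WT tetracycline, with replicate 1 lowest as for BHLHE40, and 9.23, 9.34 and 8.46 in WT untreated.

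The clock kinases set how long PER and CRY proteins last. In the WT line 2 of 13 genes of the kinase and ubiquitin ligase list rose and 1 fell. CSNK1E, a casein kinase that phosphorylates PER proteins, rose by 1.07 ± 0.20 (limma adjusted p = 0.00322). It read 10.62, 9.92 and 10.31 in WT untreated and 11.71, 11.03 and 11.31 in WT tetracycline. The other tested CSNK1E probe set gave 0.68 ± 0.62 and did not pass. CSNK2A2, a catalytic subunit of casein kinase 2, rose by 0.94 ± 0.19 (limma adjusted p = 0.00498), but its other tested probe set gave -0.15 ± 0.16. GSK3B, which phosphorylates several clock proteins, fell by 0.75 on its brightest probe set (limma adjusted p = 0.0328), a call lost in 7 of 21 alternative analyses. Its probe sets disagreed, since 226183_at fell by 1.80 (limma adjusted p = 0.0117) and 209945_s_at rose by 1.45 (limma adjusted p = 0.000266). CSNK1D, the relative of CSNK1E, gave -0.18 and did not pass.

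Among 12 corepressors and coactivators 2 rose and 1 fell. EZH2, a histone methyltransferase reported to act with CRY proteins, rose by 0.70 ± 0.15 (limma adjusted p = 0.00581). CREBBP, a histone acetyltransferase, rose by 0.64 ± 0.20 (limma adjusted p = 0.0381), a call lost in 13 of 21 alternative analyses, and its 2 other tested probe sets gave -0.42 and -0.85. SFPQ, an RNA-binding partner of PER complexes, fell by 1.05 (limma adjusted p = 0.0385) on its brightest probe set, a call lost in 14 of 21 alternative analyses. It read 13.83, 13.53 and 13.82 in WT untreated and 13.81, 12.39 and 11.84 in WT tetracycline, so treated replicate 1 lay within the untreated range, and with 1 array left out the change ran from -1.61 to -0.62. Of its 4 other tested probe sets, 201585_s_at fell by 1.19 and 214016_s_at rose by 1.27, both past the threshold.

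On the list of signal inputs to the PER genes, 4 of 13 rose and none fell. The list also holds genes that respond to or oppose such signals, and its median was 0.40 against 0.03 for all genes. DUSP1, an immediate early phosphatase that acts on MAP kinases, read 12.07, 12.98 and 11.92 in WT untreated and 13.02, 14.63 and 14.52 in WT tetracycline. It rose by 1.73 ± 0.34 (limma adjusted p = 0.00348), and replicate 1 of the treated group was the lowest, as for PER1 202861_at and BHLHE40. Its other tested probe sets gave 1.85 ± 0.64 and 0.04 ± 0.37. EGR1, an immediate early transcription factor, rose by 1.38 ± 0.39 (limma adjusted p = 0.0245), from 10.09, 9.25 and 8.89 to 11.16, 11.09 and 10.13. It lost the call in 5 of 21 alternative analyses. Of its other tested probe sets, 201694_s_at gave 1.20 ± 0.38 and passed, and 201693_s_at gave 0.43 ± 0.53 and did not. CREM, which encodes activators and repressors that bind CREs, rose by 0.93 ± 0.17 (limma adjusted p = 0.00237), while another of its probe sets, 228092_at, fell by 1.51 (limma adjusted p = 0.0046). SIK2, a kinase that holds back CREB coactivators, rose by 0.62 ± 0.17 (limma adjusted p = 0.0237), a call lost in 4 of 21 alternative analyses, and its probe set 213221_s_at fell by 0.94 (limma adjusted p = 0.0148). FOS gave 1.50 ± 0.55 and NR4A1 1.63 ± 0.60, and neither passed (limma adjusted p = 0.0762 and 0.0741). The glucocorticoid targets TSC22D3 and FKBP5 gave -0.27 ± 0.52 and 0.13 ± 0.14 and did not pass. TSC22D3 was scattered, at 10.29, 13.29 and 11.46 in WT untreated, so its change is imprecise.

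Of 9 clock output genes 1 rose. It was WEE1, a cell cycle kinase under E-box control, by 0.33 ± 0.11 (limma adjusted p = 0.0484), a call lost in 16 of 21 alternative analyses. The other tested WEE1 probe set gave 0.27 ± 0.17 and did not pass.

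The C/EBP and ATF4 family, leucine zipper factors related to NFIL3, held the largest share of rises, 4 of 7 with none lower. DDIT3 (CHOP), a stress-induced member, read 9.03, 9.31 and 8.73 in WT untreated and 11.17, 11.20 and 10.91 in WT tetracycline. It rose by 2.06 ± 0.19 (limma adjusted p = 6.34e-05), against 0.26 ± 0.19 in the mutant line. The difference of 1.81 ± 0.27 also passed (limma adjusted p = 0.0329), but not in 11 of 20 alternative analyses. CEBPB rose from 10.82 ± 0.27 (SD, n = 3) to 11.98 ± 0.19, by 1.16 ± 0.15 (SE, limma adjusted p = 0.000367). ATF4, the translationally induced factor upstream of DDIT3, rose by 0.82 ± 0.12 (limma adjusted p = 0.000657). CEBPG, a partner of other C/EBP and ATF proteins, rose by 0.58 ± 0.11 (limma adjusted p = 0.00397), and its second probe set by 1.33 ± 0.15. In the mutant line the changes were 0.25 ± 0.15 for CEBPB, 0.31 ± 0.12 for ATF4 and 0.27 ± 0.11 for CEBPG. Their treated mutant arrays lay above the untreated ones without overlap, where 13.2% of all tested probe sets did not overlap in either direction. The differences between the lines did not pass for these genes (limma adjusted p = 0.0918, 0.194 and 0.405). CEBPA and CEBPD gave 0.04 and 0.18 in the WT line and did not pass.

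**Figure D4:**
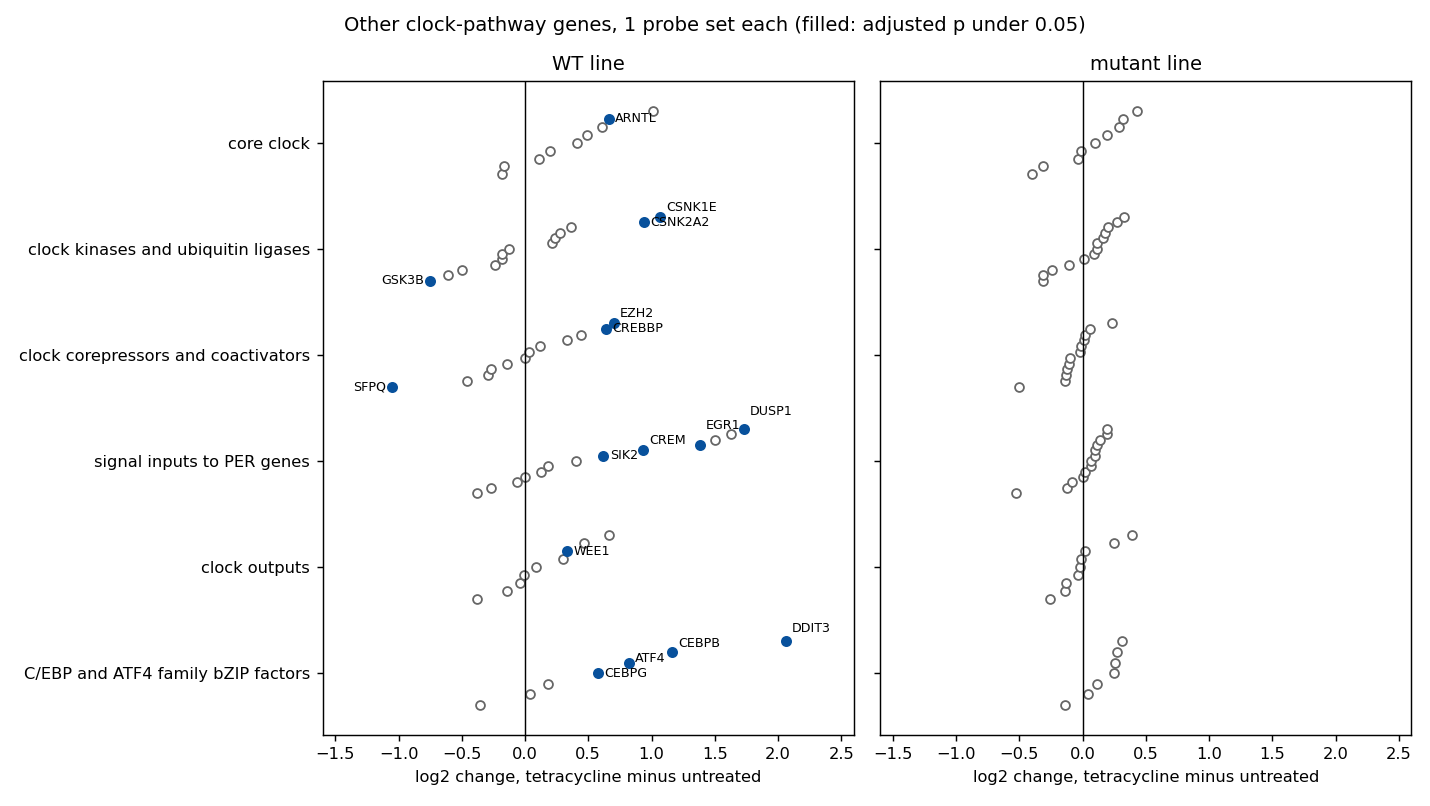
log2 change with tetracycline of 63 further clock-pathway genes in 6 lists, 1 probe set each, in the WT line (left) and the mutant line (right). Filled points passed the limma threshold and carry the gene name. In the WT line 14 lie to the right of 0 and 2 to the left, and no point is filled in the mutant line.

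Between the untreated lines 3 of the 63 pathway genes were higher and 3 lower in the WT line, against 12.7% of all genes called. NAMPT, an enzyme of NAD synthesis under clock control, was higher by 0.71 ± 0.14 (limma adjusted p = 0.00466). SIRT1, an NAD-dependent deacetylase that acts on clock proteins, was higher by 0.66 ± 0.15 (limma adjusted p = 0.0127). VEGFA, a growth factor, was higher by 1.06 ± 0.20 (limma adjusted p = 0.00463), though 3 other tested probe sets gave 0.01, -0.16 and 0.37. CEBPA was lower, at 9.57 ± 0.27 (SD, n = 3) against 10.97 ± 0.35, a difference of -1.41 ± 0.19 (SE, limma adjusted p = 0.000583). CSNK2B, the regulatory subunit of casein kinase 2, gave -0.64 ± 0.12 (limma adjusted p = 0.00377), and the acetyltransferase EP300 -0.61 ± 0.19 (limma adjusted p = 0.0441), a call lost in 13 of 21 alternative analyses.

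The genes whose pattern was nearest to that of NFIL3 were found by the root mean square (RMS) of the log2 difference over the 12 arrays, after each probe set was set to its own mean. Among 13065 other genes the median RMS was 0.633, and NFIL3 itself varied about its mean by 0.541. EIF4EBP1, which encodes a repressor of translation initiation, came nearest at 0.112. It was followed by the cell cycle inhibitor CDKN1A at 0.139, the hexosamine pathway enzyme GFPT1 at 0.166, the transcription factor ELF4 at 0.168 and MOXD1 at 0.172. CEBPB, a leucine zipper factor like NFIL3, was at 0.186. The next were ITPRIP and FAM24B at 0.187, PRDM10 at 0.193 and LRP12 at 0.195. In the WT line these 10 genes had changes from 0.94 (ELF4) to 1.48 (CDKN1A), and in the mutant line from -0.06 (ITPRIP) to 0.40 (MOXD1). Changes near those of NFIL3 were built into their choice.

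None of the other clock members was among those 10. CRY1 came at rank 259 with an RMS of 0.315, and BHLHE40 at rank 1779 with 0.446. NR1D2 followed at rank 1894 and PER2 at 5593, whose untreated WT replicate 1 stood high. TEF, HLF and DBP lay at ranks 8785, 10266 and 10998, beyond the median gene. The RMS also counts the size of a change and the scatter of the arrays, so a far rank need not mean another direction. DDIT3, with a change of 2.06 in the WT line, came at rank 451. PER1 was left out of this order because its probe sets carry more than 1 symbol, and CRY2 because it was too dim.

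**Figure D5:**
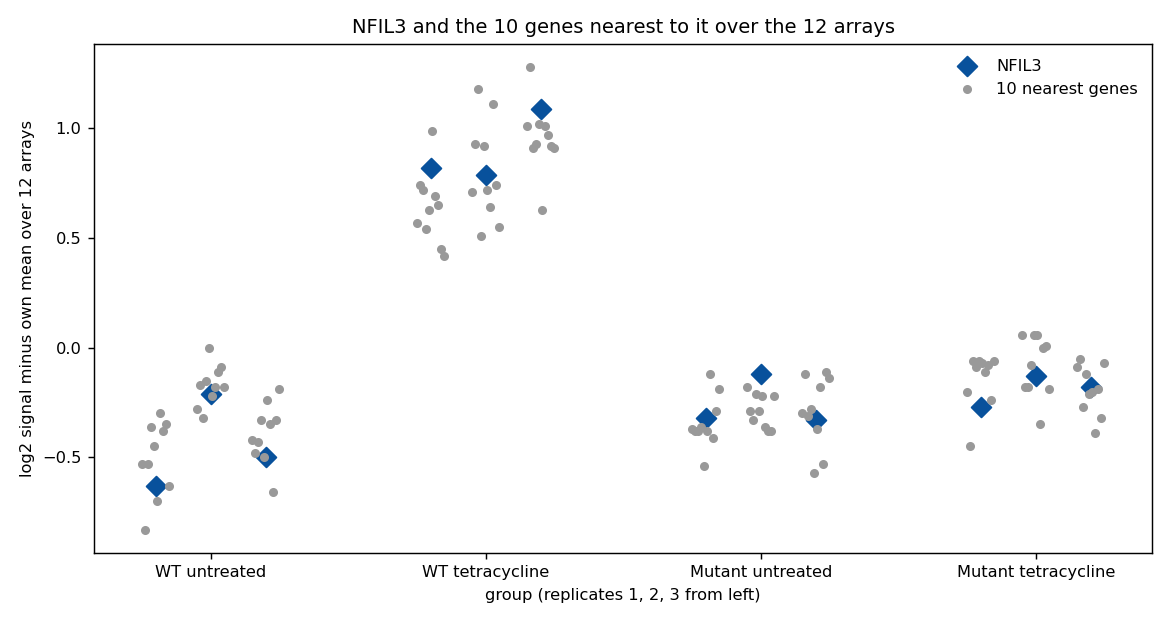
log2 signal minus its own mean over the 12 arrays, for NFIL3 (blue diamonds) and the 10 genes nearest to it by RMS difference (grey points), by group. The treated WT arrays of NFIL3 lie at 0.79 to 1.09, and its other 9 arrays lie below 0.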

How the data were processed

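Affymetrix arrays measured total RNA of HEK cell lines, 12 arrays in 4 groups of 3. The deposited values are MAS5 signals (per the submitters' processing notes), a linear intensity per probe set. The MAS5 version and settings are not given in the sources used here. With 2% of values trimmed at both ends, array means were 500.06 to 500.07, so the authors had scaled each array.

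Signals under 1 (0.337% of values) were set to 1 and log2 was taken. Probe sets were tested if their highest group mean exceeded the median of all values, 6.39, which left 29553 of 54675, without 62 control probe sets. One model with a mean per group was fitted with limma 3.58.1 in R 4.3.3 (eBayes with trend, all 12 arrays), with Benjamini-Hochberg adjustment over all tested probe sets and calls under 0.05, 2-sided. The fit was tested on simulated data. By the platform annotation 41097 probe sets carried 1 symbol, 1801 several and 11721 none.

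The members, the 6 gene lists and the alternatives were chosen with earlier results of these data known. Named pathway genes were those called on their brightest probe set, plus up to 2 near misses per list; CLOCK, PER3, CSNK1D, TSC22D3, FKBP5, CEBPA and CEBPD were added to these for their roles, after their values were seen. Promoter sequences are from RefSeq (GRCh38.p14). Figures used matplotlib 3.10.9 under Python 3.11.15.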

Additional observations from a re-analysis of the deposited data

Results flagged for a closer look

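The change of NFIL3 with tetracycline differed between the lines. The WT change minus the mutant change was 1.29 ± 0.21 on the log2 scale (SE, n = 3 arrays per group). The limma call for this difference was lost on leaving out 9 of the 12 arrays in turn. It was also lost with no filter, quantile normalization or no variance trend. The gene was selected on these values, so the difference and its call are a description and not a test.

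The change of DDIT3 also differed between the lines, by 1.81 ± 0.27 (SE, limma adjusted p = 0.0329 for the difference term). All 3 treated WT arrays lay above the untreated ones, while the mutant groups overlapped. The call for the DDIT3 difference was lost in 11 of 20 alternative analyses. With 1 cell line per genotype, neither the NFIL3 nor the DDIT3 difference can be told apart from a difference between the founding cells. The actin ratio given above also separates the lines, and its part was not tested.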

How the results depend on the processing

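Of 23 changes named for pathway genes, 6 stayed past the threshold under the 21 alternatives that kept the brightest probe set. These were CEBPB, ATF4 and DDIT3 in the WT line, and CSNK2B, VEGFA and CEBPA between the untreated lines. Those alternatives did not include averaging the probe sets of each gene. For VEGFA the 3 other tested probe sets gave 0.01, -0.16 and 0.37, and none passed. Of the 481 values of the 23 changes under alternatives, 371 kept direction and call, 110 lost the call and 0 changed sign. Of 1134 changes of member probe sets under alternatives, 16 moved by 1 SD or more. That count looks at size only, and some member changes switched sign. The WT change of DBP 209782_s_at kept its sign in 17 of 20 alternatives, with a range from -0.56 to 0.29. The probe sets called in the WT line numbered 5005, against 1223 with only the groups compared, 541 without the replicate 3 arrays and 2744 to 8077 with 1 array left out. Of the member probe sets 7 were called there, against 2, 1 and 4 to 8, and of the pathway genes 16, against 6, 4 and 10 to 21, or 7 where each gene was the mean of its probe sets. In the mutant line 0 were called, and 4 with array weights. The difference between the inductions had 41 probe sets. It had 8 with no filter, 89 with the stricter filter, 76 with an offset of 16, 15 with quantile normalization, 6 without the variance trend, 2493 with array weights, 0 without the replicate 3 arrays (1744 at an unadjusted p under 0.05) and 0 to 2702 with 1 array left out. Its member calls went from 1 to 0 with no filter, quantile normalization, no trend or no replicate 3 arrays, 3 with array weights and 0 to 4 with 1 array left out. Its pathway calls went from 1 to 0 with no trend or no replicate 3 arrays, 8 with array weights and 0 to 11 with 1 array left out. Between the untreated lines 3807 probe sets were called, against 1717 without the replicate 3 arrays and 1621 to 5369 with 1 array left out. The member calls there were 2, against 1 with no trend, 0 without the replicate 3 arrays and 0 to 2 with 1 array left out. The counts of 8077, 2702 and 5369 came from leaving out WT tetracycline replicate 1. That array had the lowest array weight (0.267) and the highest actin ratio (1.36). Fewer arrays in a fit leave less to estimate the spread from, and the cause of the other shifts was not tested.

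With a replicate block the difference gave 76 probe sets and 2 pathway genes. The replicate numbers were not taken as pairs, because same-numbered arrays deviated together only weakly (correlations of 0.253, 0.24 and 0.042 for WT, 0.137, 0.026 and 0.21 for the mutant, and 0.081, 0.015 and 0.018 between the untreated lines). Signals near background limit CRY2, 1 HLF probe set and the dim probe sets of TEF, PER1 and PER2.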
